A study of Rattus norvegicus with 15 samples.

Results

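The livers compared came from male Sprague Dawley rats (Charles River) that received the acetyl-CoA carboxylase (ACC) inhibitor PF-04923503 at 30 mg/kg or at 10 mg/kg, and the question was whether the higher dose gave a larger, an equal or a smaller transcript response. The comparison used the 5 arrays titled for 30 mg/kg against the 5 titled for 10 mg/kg, 10 of the 15 arrays of the series. The remaining 5 arrays were livers of rats given vehicle, 0.5% methylcellulose. All 3 groups ate a high fat diet with 59% of its energy from fat, were 7 weeks old at the start and were dosed by gavage once a day for 6 weeks, so the diet and the gavage with methylcellulose were common to vehicle and treated rats. Each liver sample was hybridised to 1 Affymetrix rat array, which reads a gene through 1 or more sets of short probes. All values below are log2 expression values, and after a filter on low values 9540 genes were tested. Samples are numbered within each group, but no label says that every number is a different rat, so the p-values reflect only the spread among these samples, which may be partly technical.

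ACC makes malonyl-CoA, the building block that fatty acid synthase extends into palmitate. Malonyl-CoA also blocks carnitine palmitoyltransferase 1, the gate through which fatty acids enter mitochondria, so ACC sits between fat synthesis and fat oxidation in the liver. Acaca encodes the cytosolic isoform and Acacb the isoform at the mitochondrial outer membrane. Transcripts of the synthesis pathway are driven by SREBP-1c and ChREBP, and those of oxidation by PPAR-alpha, a nuclear receptor that binds fatty acids.

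No gene separated the doses in the test across all genes. At an adjusted p under 0.05 (limma, Benjamini-Hochberg), 0 of 9540 genes were called between 30 and 10 mg/kg, a background of 0%, and the lowest adjusted p was 0.851. At an unadjusted p under 0.05, 555 genes (5.82%) differed, of which 245 (2.57%) were higher and 310 (3.25%) lower at 30 mg/kg. The share of these that was higher, 44.1%, moved to 64.0% after quantile normalisation and to 33.6% after centring each array, so the split between directions moved with the scaling. The 5 arrays of one dose all lay on one side of the 5 of the other in 90 genes (0.943%), 42 higher (0.44%) and 48 lower (0.503%) at 30 mg/kg. The median difference over all genes was -0.0079.

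The arrays bounded the dose difference tightly for most genes. In 9031 genes (94.7%) the 95% confidence interval of 30 minus 10 mg/kg lay wholly within 1.5-fold in either direction, and in 78.0% it lay within 1.25-fold. For the median gene the interval reached 0.16 to either side, or 1.12-fold. In 509 genes it ran past 1.5-fold, and in 441 of these it also included 0, so that 5 arrays per dose left their difference undecided. The group means differed at least 1.5-fold in 45 genes and at least 2-fold in 7, of which Ugt2b and Bco1 had an unadjusted p under 0.05 (limma).

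**Figure D1:**
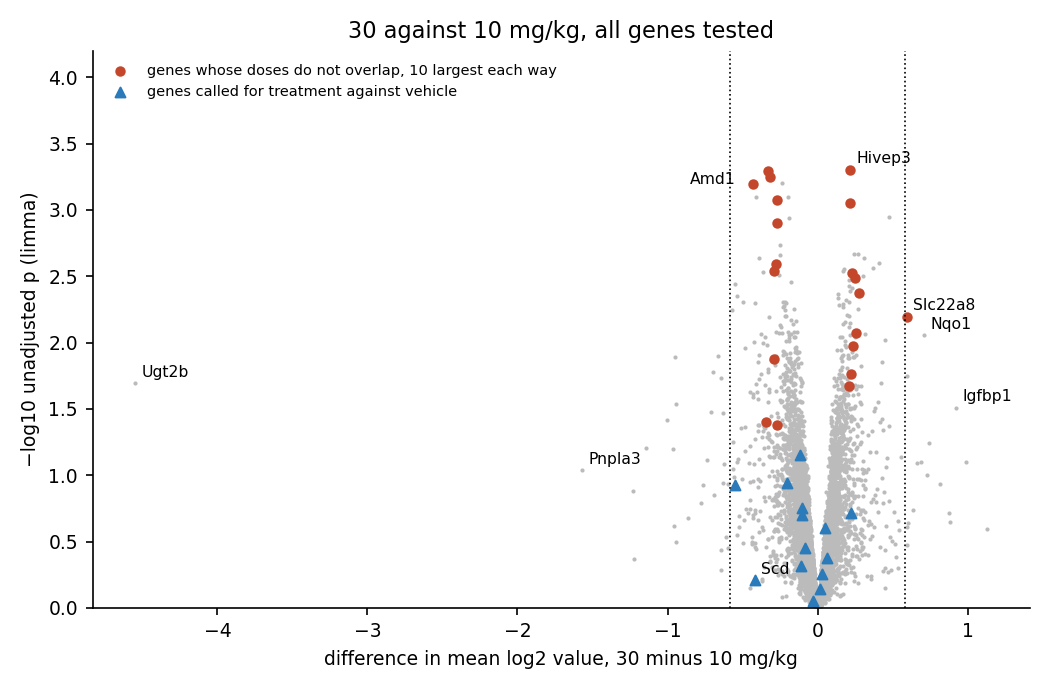
Each grey point is 1 of 9540 genes, with the difference in mean log2 value (30 minus 10 mg/kg) on the horizontal axis and −log10 of limma's unadjusted p on the vertical axis. Red circles are the 20 genes described below whose dose groups do not overlap, blue triangles are the 14 genes that differed between treated and vehicle livers, and dotted lines mark 1.5-fold. Most genes sit between the dotted lines, and the treatment genes lie low in the plot.

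Genes that responded to the inhibitor were chosen on the mean of both doses against vehicle, a contrast that in groups of equal size leaves the difference between the doses free. By that contrast 14 genes were called (0.147%; limma, Benjamini-Hochberg adjusted p 0.0205 to 0.0379), 8 higher and 6 lower in treated livers. With 1 array left out the count ran from 0, without array 3 of 10 mg/kg, to 85, without vehicle array 5, and with the sample number as a block it was 3. It was 1 without vehicle array 1 or 4, 2 without vehicle array 2, 24 without array 1 of 10 mg/kg and 38 without array 5 of 30 mg/kg. The treated and vehicle arrays did not overlap in 58 genes (0.608%). Those that rose were Scd, the desaturase that makes oleate and palmitoleate, Fads1, a desaturase of polyunsaturated fatty acids, Dbi, which binds acyl-CoA, Mtmr7, a phosphoinositide phosphatase, Dpt, an extracellular matrix protein, Tgoln2, of the trans-Golgi network, the phosphatase Ptprv and C2h4orf3. Those that fell were Tfrc, the transferrin receptor for iron uptake, Slc13a3 and Slc13a4, which carry dicarboxylates and sulfate, Gprc5c, an orphan receptor, Psen2, a gamma-secretase subunit, and Mpst, an enzyme of cysteine sulfur metabolism.

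Within these 14 genes no interval of 30 minus 10 mg/kg excluded 0, and for 12 it lay within 1.5-fold (85.7%, beside 94.7% of all genes). The other 2 were Scd and Mtmr7, whose intervals were too wide. The mean at 30 mg/kg lay nearer to vehicle than the mean at 10 mg/kg in 11 of the 14 (78.6%, beside 47.6% of all genes). It lay further away in Tfrc, Slc13a4 and Ptprv. With each difference signed so that positive means further from vehicle, the median of the 14 was -0.09, beside 0.0045 over all genes. Leaving out the 30 mg/kg array 5 brought it to -0.04 and leaving out the 30 mg/kg array 2 to -0.13, with 11 and 10 of the 14 nearer to vehicle. Each dose alone against the same vehicle arrays called 10 genes (0.105%) at 10 mg/kg and 0 (0%) at 30 mg/kg, where the lowest adjusted p was 0.0979 (limma, Benjamini-Hochberg). At an unadjusted p under 0.05 the order was the other way, with 1267 genes at 10 mg/kg and 1535 at 30 mg/kg. These counts share their controls and do not test the doses against each other.

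Tfrc, Mpst and Psen2 had nearly equal means at the doses. Tfrc values were 10.05, 9.84, 9.94, 10.19 and 9.87 at 10 mg/kg and 9.88, 10.04, 9.71, 9.97 and 10.17 at 30 mg/kg, against 12.07, 10.91, 11.29, 10.78 and 10.89 in vehicle. The dose groups were interleaved and both lay wholly below vehicle. The difference between doses was -0.03, with an interval of -0.43 to 0.38, and the treated mean was 2.34-fold below vehicle (limma, Benjamini-Hochberg adjusted p = 0.0205). Mpst, at 10.38 ± 0.06 and 10.40 ± 0.09 (SD, n = 5 each), and Psen2, at 8.12 ± 0.02 and 8.15 ± 0.10, differed by 0.02 and 0.03. Their intervals, narrower than that of Tfrc, were -0.09 to 0.13 and -0.08 to 0.15.

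Fads1 came closest to a smaller value at the higher dose. It measured 13.61, 13.76, 13.70, 13.75 and 13.71 at 10 mg/kg and 13.60, 13.64, 13.75, 13.46 and 13.48 at 30 mg/kg, while vehicle ran from 13.16 to 13.38. Arrays 4 and 5 of the higher dose were the lowest treated values, yet both still exceeded every vehicle array. The difference was -0.12, with an interval of -0.25 to 0.01 (limma, unadjusted p = 0.0704). Slc13a3 differed in the same sense, towards vehicle, by 0.22 (interval -0.12 to 0.57).

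**Figure D2:**
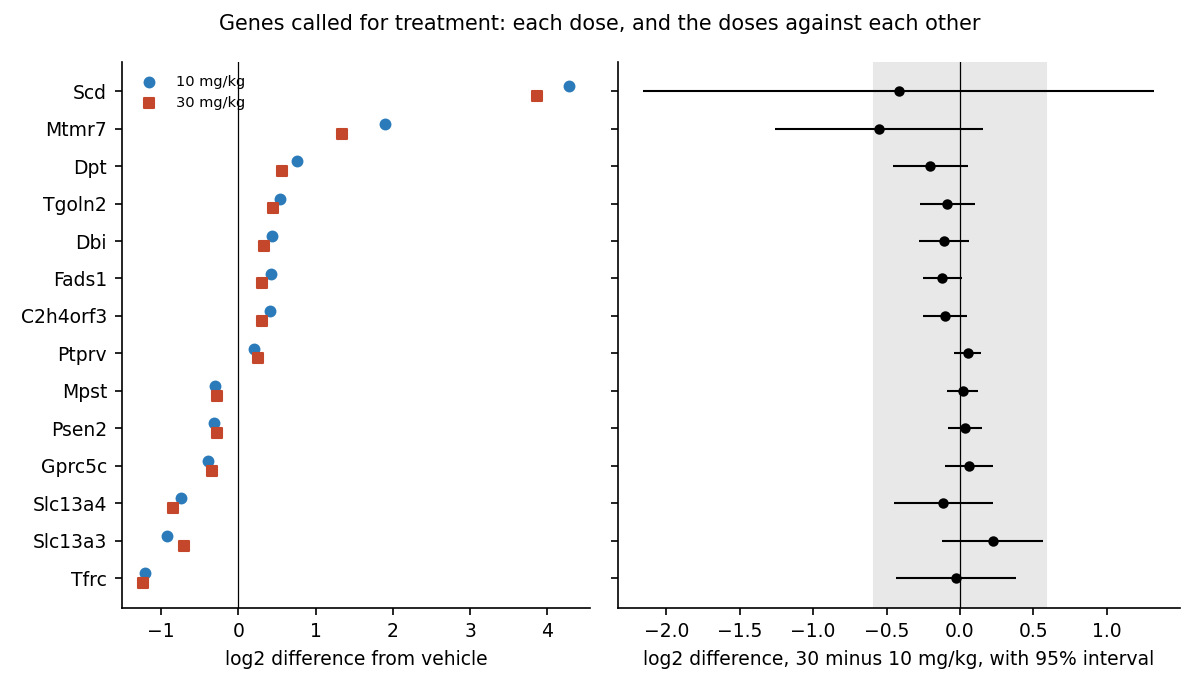
The left panel plots the log2 difference from vehicle at 10 mg/kg (blue circles) and at 30 mg/kg (red squares) for the 14 genes called for treatment, and the right panel the log2 difference of 30 minus 10 mg/kg with its 95% interval (n = 5 each). Shading marks 1.5-fold in either direction; every interval crosses 0, and those of Scd and Mtmr7 leave the shading.

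Arrays of the 30 mg/kg group varied widely in Scd, Pnpla3 and Fasn. Scd values were 12.16, 12.22, 12.62, 13.57 and 12.89 at 10 mg/kg and 11.48, 14.13, 13.13, 11.84 and 10.77 at 30 mg/kg, with vehicle at 6.82, 7.44, 8.94, 7.16 and 11.71. The higher dose held both the highest and the lowest treated array, and array 5 of that dose lay below the highest vehicle array. The means were 12.69 ± 0.57 and 12.27 ± 1.35 (SD, n = 5 each), a difference of -0.42 with an interval of -2.16 to 1.32, which allows a lower or a higher level at 30 mg/kg. The treated mean was 16.8-fold above vehicle (limma, Benjamini-Hochberg adjusted p = 0.0361).

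Pnpla3, a lipid droplet hydrolase induced by carbohydrate feeding, spread even further within the higher dose. It measured 11.45, 11.41, 11.10, 12.24 and 11.39 at 10 mg/kg and 9.63, 12.29, 11.87, 8.14 and 7.82 at 30 mg/kg, against 5.92, 7.00, 7.27, 5.78 and 9.78 in vehicle. Arrays 2 and 3 of the higher dose matched or exceeded most of the lower dose, array 1 lay below the whole lower dose, and arrays 4 and 5 lay lower still. These last 3 arrays were all below the highest vehicle array, 9.78. The mean was 2.96-fold lower at 30 mg/kg, a log2 difference of -1.57 with an interval of -3.42 to 0.29 (limma, unadjusted p = 0.0919). Its other 2 probe sets differed by -1.33 and -0.92.

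Fasn, the fatty acid synthase, had the same arrangement on a smaller scale. Its values were 11.98, 11.76, 11.90, 12.56 and 12.05 at 10 mg/kg and 11.66, 13.11, 12.27, 11.28 and 10.82 at 30 mg/kg. Array 2 was again the highest and arrays 4 and 5 the lowest of the higher dose. The difference was -0.22, with an interval of -1.07 to 0.62, and without array 5 of the higher dose it was 0.03.

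The inhibitor's targets did not separate the doses. Acaca measured 10.05, 9.76, 10.20, 10.48 and 10.21 at 10 mg/kg and 9.87, 10.93, 10.30, 9.89 and 9.40 at 30 mg/kg, a difference of -0.06 (interval -0.57 to 0.45), with 0.04 at its other probe set. Acacb measured 8.03, 7.86, 7.68, 7.42 and 7.76 at 10 mg/kg and 7.56, 7.97, 7.97, 7.44 and 7.42 at 30 mg/kg, a difference of -0.08 (interval -0.54 to 0.38). The groups overlapped in both genes. Against vehicle both isoforms stood 0.93 to 1.01 higher at each dose, which did not pass the test for the mean of both doses (limma, Benjamini-Hochberg adjusted p = 0.0690 and 0.0525).

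**Figure D3:**
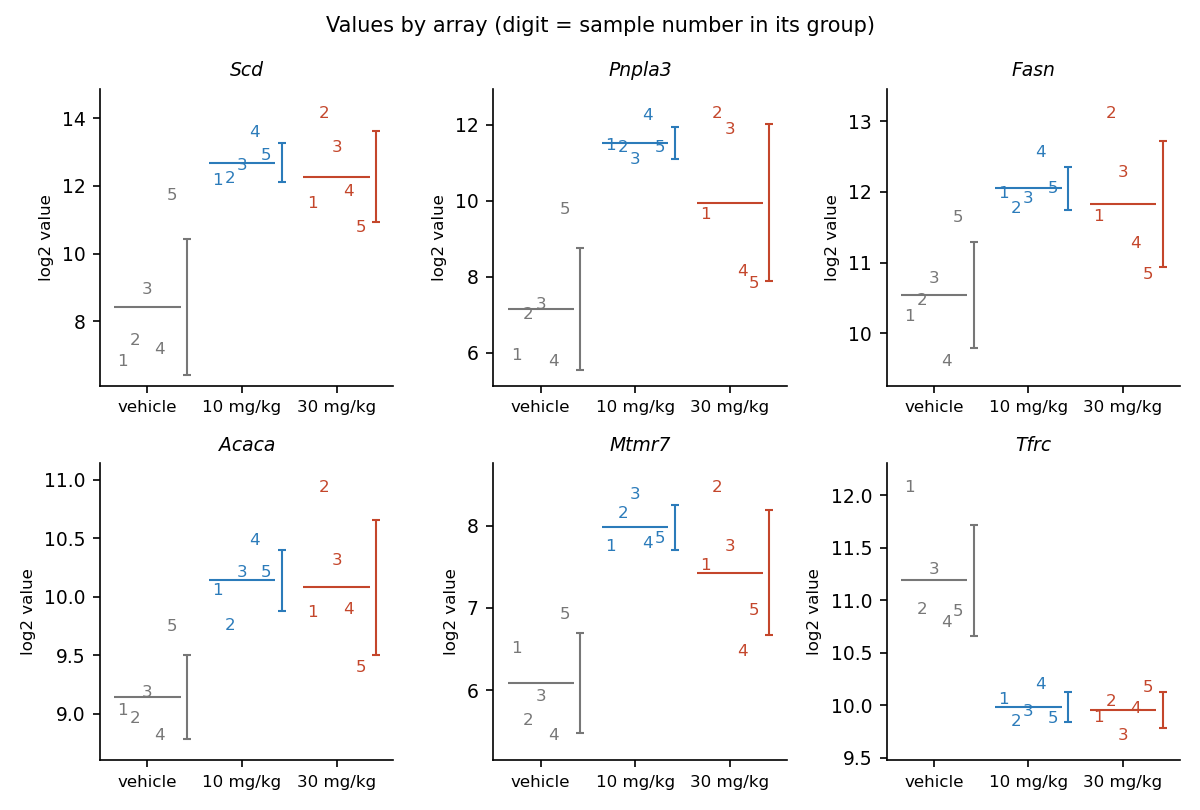
Log2 values of Scd, Pnpla3, Fasn, Acaca, Mtmr7 and Tfrc in vehicle, 10 mg/kg and 30 mg/kg livers, with each array drawn as its sample number. Horizontal lines are group means and bars at the right of each group are ± 1 SD (n = 5). Array 2 is the highest of the 30 mg/kg group in Scd, Pnpla3, Fasn, Acaca and Mtmr7 and array 4 or 5 is the lowest, while Tfrc is tight at both doses.

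Across the fatty acid synthesis list, 22 of 25 genes were measured, and neither test rule picked any of them between doses, with 0 called and 0 at an unadjusted p under 0.05. The median difference was -0.11, with 20 of the 22 lower in mean at 30 mg/kg (90.9%, beside 54.4% of all genes). Set against the shared vehicle arrays, the median stood 0.38 higher at the lower dose and 0.20 higher at the higher dose. In 16 of the 22 (72.7%, beside 47.1% of all genes) the SD between arrays was larger at the higher dose, although the median SD of the list was 0.19 at each dose. Within that dose array 2 was the highest in 11 genes and array 5 the lowest in 10 (50% and 45.5%), where over all genes array 2 was highest in 29.7% and array 5 lowest in 19.5%. Without array 5 the list's median was -0.05 with 15 of 22 lower, and without array 2 it was -0.17 with 19 of 22 lower.

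The members with the lowest p were Fads1, described above, Fads2 and Elovl2. Fads2, the desaturase that starts the polyunsaturated pathway, differed by -0.30, and Elovl2, an elongase of long polyunsaturated fatty acids, by -0.46. Both had an unadjusted p above 0.05 (limma, 0.0731 and 0.0815). Among 18 measured regulators and targets of SREBP-1c and ChREBP the median was -0.10, with 12 lower in mean and 0 of 18 at an unadjusted p under 0.05. Without array 2 of 30 mg/kg, 7 of the 18 were lower at that p (limma), beside 4.59% of all genes in that fit, and the median was -0.14. Without array 4 of 10 mg/kg or array 4 of 30 mg/kg the median was -0.04 or -0.05. Srebf1, which encodes SREBP-1, differed by -0.30 (interval -0.72 to 0.12), Angptl8, an insulin-induced inhibitor of lipoprotein lipase, by -0.63, and Slc2a2, the hepatic glucose transporter, by -0.22.

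PPAR-alpha targets had the lowest median of the 42 lists. Of 25 measured, 21 were lower in mean at 30 mg/kg, the median difference was -0.21, and 6 (24%) were lower at an unadjusted p under 0.05, beside 3.25% of all genes. None was called in the test over all genes. The 6 were Creb3l3, a membrane-bound transcription factor active in fasting, Pex11a, which divides peroxisomes, the carnitine transporter Slc22a5, the pantetheinase Vnn1, Hadha, a subunit of the mitochondrial trifunctional protein, and Cyp4a1, a fatty acid omega-hydroxylase. The list's median lay 0.18 above vehicle at 10 mg/kg and at -0.00 at 30 mg/kg.

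Pex11a measured 9.50, 9.93, 9.20, 9.52 and 9.68 at 10 mg/kg and 9.01, 9.14, 9.30, 8.56 and 8.97 at 30 mg/kg. The groups overlapped by 1 array, and vehicle, from 8.67 to 9.58, overlapped each of them. The difference was -0.57 (interval -0.95 to -0.19; limma, unadjusted p = 0.00570, Benjamini-Hochberg adjusted p = 0.851), with -0.64 at its other probe set. Slc22a5 measured 8.72, 8.97, 8.55, 8.34 and 8.50 against 8.22, 8.35, 8.27, 8.13 and 8.16. The difference was -0.39 (interval -0.68 to -0.10), with only 1 array overlapping.

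Creb3l3 measured 12.50, 12.48, 12.32, 12.30 and 12.34 at 10 mg/kg and 12.21, 12.27, 12.20, 11.99 and 12.17 at 30 mg/kg. All 5 arrays of the higher dose were lower, and the difference was -0.22 (interval -0.36 to -0.08). Cyp4a1 and Vnn1 were chosen for display after their values were seen and differed by -0.36 and -0.41. Array 4 of the higher dose gave the lowest value of its group in 17 of the 25 targets (68%, beside 25.6% of all genes). Without it the median was -0.10 and 4 targets were lower at an unadjusted p under 0.05 (limma). The number ran from 3, without array 2 or array 5 of 10 mg/kg, to 9, without array 3 of either dose. Over all genes the share lower at that p was 2.01% without array 4 of 30 mg/kg and 2.88% to 3.58% in the other fits named here.

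The median difference among enzymes of oxidation themselves was small. Of 21 mitochondrial fatty acid oxidation genes, 18 were lower in mean at 30 mg/kg (85.7%, beside 54.4% of all genes) with a median of -0.07. Single members ran from -0.30 to 0.60, so the largest difference was a rise. At an unadjusted p under 0.05 (limma), 0 were higher and 3 lower (14.3%, beside 3.25%), Decr1, Hadha and Hadhb. That count of 3 was 1 after quantile normalisation and without array 2 or 5 of 10 mg/kg or array 2 or 4 of 30 mg/kg. It was 5 and 6 without array 4 and array 3 of 10 mg/kg, and 7 without array 3 of 30 mg/kg. The share of all genes lower at that p was 2.01% to 4.59% in these fits. Decr1, the dienoyl-CoA reductase for unsaturated fatty acids, differed by -0.23 (interval -0.40 to -0.06). Hadha and Hadhb, partners in the trifunctional protein, differed by -0.13 and -0.16, and Hadha's other probe set by -0.02. In 18 of the 21 genes the interval lay within 1.5-fold (85.7%, beside 94.7% of all genes). Of 24 peroxisome genes 19 were lower in mean (79.2%, beside 54.4% of all genes), with a median of -0.07. At an unadjusted p under 0.05 (limma), 2 were lower (8.33%, beside 3.25%) and 1 higher (4.17%, beside 2.57%). The lower ones were Pex11a, also a PPAR-alpha target above, and Crat, the carnitine acetyltransferase, at -0.33. The higher one was Acox2, which shortens bile acid side chains, at 0.37. Each had an adjusted p of 0.851 (limma, Benjamini-Hochberg).

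**Figure D4:**
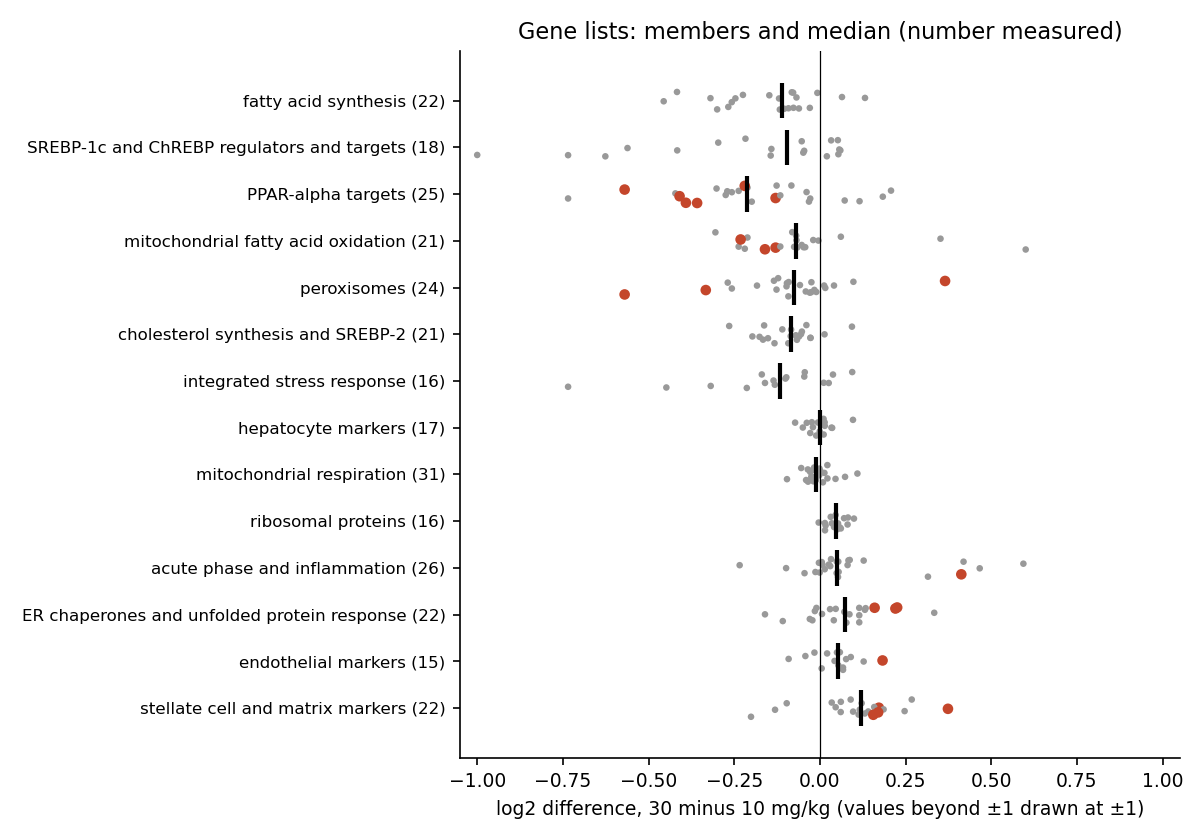
Differences of 30 minus 10 mg/kg (log2) for the members of 14 gene lists, 1 point a gene, with the number measured in brackets and the list's median as a black bar. Large red points have a limma unadjusted p under 0.05, none passed adjustment over all genes, and 1 gene beyond the axis is drawn at its edge. PPAR-alpha targets hold 6 red points on the lower side, and hepatocyte markers and ribosomal proteins lie close to 0.

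In the sterol synthesis list the sign of the median rested on 1 array. Of 21 measured, 19 were lower in mean at 30 mg/kg with a median of -0.08, and 0 had an unadjusted p under 0.05. Array 2 of the higher dose, the highest in much of fatty acid synthesis, was the lowest in 14 of these 21 (66.7%, beside 16.2% of all genes). Without it the median was 0.01 with 10 of 21 lower.

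Other lipid lists had small median differences between doses, with few single members at an unadjusted p under 0.05. The medians were -0.04 for 13 triglyceride synthesis genes, -0.07 for 17 lipid droplet genes and -0.03 for 21 lipoprotein genes. The interval lay within 1.5-fold in 84.6%, 76.5% and 85.7% of them, beside 94.7% of all genes. At an unadjusted p under 0.05 (limma), 0, 1 (5.88%) and 1 (4.76%) were lower, beside 3.25% of all genes. Lipid droplet members reached -0.60. Hsd17b13, a lipid droplet enzyme, measured 12.10, 12.28, 12.12, 12.12 and 12.32 at 10 mg/kg and 11.94, 12.06, 12.08, 11.74 and 11.78 at 30 mg/kg, with vehicle from 11.39 to 12.09. The doses did not overlap, and the higher dose lay nearer to vehicle. The difference was -0.27 (interval -0.53 to -0.01). Apoc2, the activator of lipoprotein lipase, differed by -0.15 (interval -0.26 to -0.04).

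Igfbp1 and Irs2, which insulin represses in liver, belong to a list of 11 measured ketogenesis and fasting genes. They were its only members with an unadjusted p under 0.05 (limma), both higher (18.2%, beside 2.57% of all genes). The list's median was -0.03 with 6 of 11 lower in mean, and Fgf21 differed by -0.73 (interval -1.56 to 0.09). Igfbp1, a binding protein of insulin-like growth factors, measured 7.80, 7.73, 8.13, 7.42 and 7.91 at 10 mg/kg and 8.01, 8.0, 9.25, 9.71 and 8.64 at 30 mg/kg. Arrays 3, 4 and 5 of the higher dose exceeded the whole lower dose, while vehicle ran from 6.50 to 8.68. The difference was 0.92, or 1.90-fold (interval 0.10 to 1.75; limma, unadjusted p = 0.0310). Irs2, an adaptor of the insulin receptor, measured 7.51, 6.47, 7.84, 6.60 and 7.51 against 7.94, 7.57, 8.17, 7.77 and 7.46. Its groups overlapped, and the difference was 0.60 (interval 0.12 to 1.08). Of 20 glycolysis and glycogen genes only Gys2, the liver glycogen synthase, had an unadjusted p under 0.05 (limma), at -0.18 (5% lower, beside 3.25% of all genes). Of 16 gluconeogenic genes 0 did, and 15 had intervals within 1.5-fold.

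Slc22a8, Nqo1 and Sult1e1, genes of detoxification and transport, had means below vehicle at 10 mg/kg and near it at 30 mg/kg. Slc22a8, the organic anion transporter OAT3, measured 10.77, 10.64, 10.69, 11.35 and 11.13 at 10 mg/kg, 11.43, 11.37, 11.59, 11.71 and 11.43 at 30 mg/kg, and 11.07, 11.02, 11.89, 11.99 and 11.46 in vehicle. All 5 arrays of the higher dose were above the lower dose, and vehicle overlapped both. The difference was 0.59, or 1.51-fold (interval 0.19 to 0.99; limma, unadjusted p = 0.00638, Benjamini-Hochberg adjusted p = 0.851), with 0.43 at its other probe set. Nqo1, a quinone reductase induced by NRF2 and AhR, measured 9.72, 9.27, 8.77, 9.02 and 8.74 against 9.89, 9.66, 9.26, 10.37 and 9.89. It differed by 0.71 (interval 0.21 to 1.21), and its mean stood at -0.64 from vehicle at 10 mg/kg and at 0.07 at 30 mg/kg.

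Sult1e1, the estrogen sulfotransferase, also stood near vehicle in mean at 30 mg/kg (0.03) and below it at 10 mg/kg (-0.42). It measured 13.87, 12.94, 13.48, 13.97 and 13.17 at 10 mg/kg and 13.92, 13.92, 13.86, 14.06 and 13.93 at 30 mg/kg. The higher dose was tight. Values of the lower dose spread more widely, from 12.94 to 13.97, and overlapped it, with a difference of 0.45 (interval 0.13 to 0.77). The conjugation list that holds Sult1e1 had a median of -0.01 over 21 genes, which turns sign after quantile normalisation. Nqo1 is on the NRF2 list and on a list of 5 AhR genes, which includes Ahr and Arnt themselves. Of these 5, 4 were higher in mean, with a median of 0.12. Tiparp, the other, differed by -0.17 with no overlap between doses. At an unadjusted p under 0.05 (limma), 1 of the 5 was higher (20%, beside 2.57% of all genes) and 1 lower (20%, beside 3.25%). The NRF2 and glutathione list of 20 had a median of 0.01 with 2 members, Nqo1 and Osgin1, higher at an unadjusted p under 0.05 (10%, beside 2.57% of all genes). Among 21 genes of a phase I list, which includes the xenobiotic receptors CAR and PXR, the median was -0.04. Single members ran from -0.43 to 0.64. Only Cyp2j4, an arachidonic acid epoxygenase, had an unadjusted p under 0.05 (limma), at -0.43 (interval -0.73 to -0.12). That is 4.76% lower, beside 3.25% of all genes, and 0 higher.

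Of 22 genes for chaperones of the endoplasmic reticulum and the unfolded protein response, 16 were higher in mean at 30 mg/kg with a median of 0.07, and 3 had an unadjusted p under 0.05 (13.6%, beside 2.57% of all genes). These were Xbp1, the transcription factor of the unfolded protein response, at 0.23, Manf, a secreted stress protein, at 0.22 and Syvn1, a ubiquitin ligase of protein degradation, at 0.16. In 21 of the 22 the interval lay within 1.5-fold. The count of 3 was 0 without array 2 or array 5 of 10 mg/kg and without array 3 or array 5 of 30 mg/kg. Of 16 integrated stress response genes and 11 p53 targets, 0 had an unadjusted p under 0.05, with medians of -0.12 and 0.01. Of 26 acute phase and inflammation genes, Il1b alone did, which was higher (3.85%, close to the 2.57% of all genes). It measured 6.45, 6.34, 6.68, 6.40 and 6.35 at 10 mg/kg and 7.06, 6.51, 6.80, 7.11 and 6.80 at 30 mg/kg. The difference was 0.41 (interval 0.17 to 0.65), and the lower dose lay near the threshold of the low-value filter, 6.10.

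Of the 20 genes named next, chosen by the size of their difference, 1 (Hsd17b13) is on any of the 42 lists, so the lists do not describe their functions. Some listed genes also had no overlap between doses but a smaller difference, Creb3l3 among them. Of genes with an unadjusted p under 0.05 and no overlap between doses, the 10 with the largest difference in each direction were Slc22a8, Eps8, Banp, Fgf4, Il6st, Tff1, Olfml3, Ppp1r3d, Hivep3 and Arhgdig, higher at 30 mg/kg, and Amd1, Sts, Epm2aip1, Apoc4, Nfrkb, Ccnj, Kalrn, Rnf168, Hsd17b13 and Ccnt2, lower. All had an adjusted p of 0.851 (limma, Benjamini-Hochberg). The differences ran from 0.21 to 0.59 and from -0.43 to -0.27, so that all but Slc22a8 were at most 1.35-fold. Of these, Eps8, Banp, Fgf4, Tff1, Olfml3, Ppp1r3d, Hivep3, Ccnj and Rnf168 had mean values near the threshold of the low-value filter, the median of all values.

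Amd1, the decarboxylase that supplies polyamine synthesis, measured 8.70, 8.80, 8.53, 8.70 and 8.83 at 10 mg/kg and 8.36, 8.35, 8.38, 8.16 and 8.14 at 30 mg/kg. The doses did not overlap, and vehicle, from 8.16 to 8.77, covered most of both. The difference was -0.43 (interval -0.65 to -0.22; limma, unadjusted p = 0.000640), so that the lower dose was 1.35-fold higher. Apoc4, an apolipoprotein of triglyceride-rich particles, measured 13.05, 12.95, 12.73, 12.65 and 12.68 against 12.39, 12.52, 12.64, 12.44 and 12.48. Here vehicle, from 12.62 to 12.69, lay between the means of the doses, and the difference was -0.32 (interval -0.47 to -0.16).

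Hivep3, a zinc finger protein, had the lowest unadjusted p of all 20 (limma, 0.000496). It measured 6.42, 6.45, 6.55, 6.45 and 6.52 at 10 mg/kg and 6.62, 6.66, 6.68, 6.75 and 6.74 at 30 mg/kg, a difference of 0.21. The whole of the higher dose also lay above vehicle, which ran from 6.29 to 6.49. Il6st, the signalling subunit shared by receptors of the interleukin-6 family, differed by 0.23 (interval 0.06 to 0.41), with 0.02 to 0.26 at its other 3 probe sets. Kalrn, a guanine nucleotide exchange factor, differed by -0.28, but its other 2 probe sets gave 0.10 each, in the opposite direction.

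**Figure D5:**
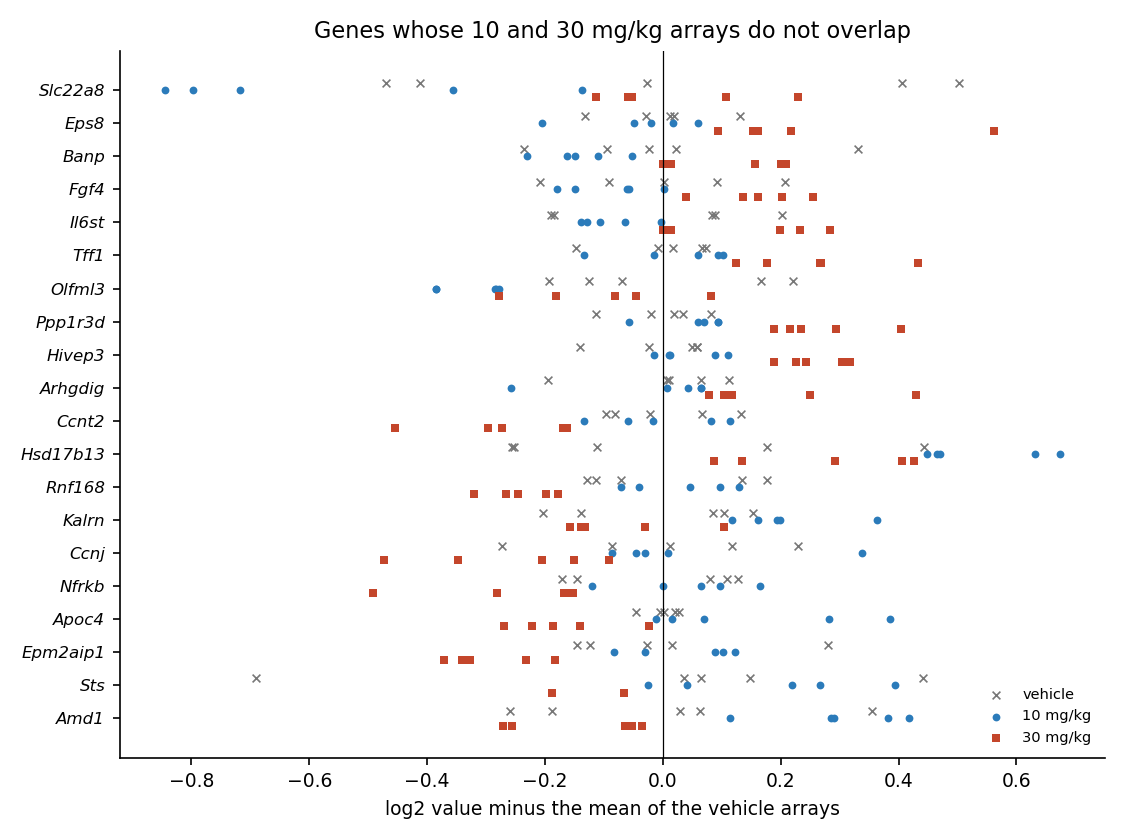
Log2 values of the 20 genes minus each gene's mean in vehicle, for vehicle (crosses), 10 mg/kg (blue circles) and 30 mg/kg (red squares), 5 arrays each. The red and blue points of a gene do not overlap, by construction of the set. The arrays of the higher dose lie wholly outside vehicle in Hivep3, Ppp1r3d, Tff1, Rnf168, Epm2aip1 and Ccnt2, and those of the lower dose in Olfml3 and Hsd17b13.

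The widest difference of all was in a probe set for Ugt2b, a glucuronosyltransferase of steroids and drugs, singled out after its values were seen. It measured 13.61, 13.95, 13.99, 13.75 and 13.97 at 10 mg/kg and 13.68, 13.63, 6.37, 6.36 and 6.47 at 30 mg/kg. Vehicle gave 13.99, 13.92, 8.95, 13.71 and 6.29. Values were thus either high or far lower, with 3 of 5 low arrays at 30 mg/kg, 2 of 5 in vehicle and 0 of 5 at 10 mg/kg. The difference in means, -4.55 (interval -8.28 to -0.82; limma, unadjusted p = 0.0201, Benjamini-Hochberg adjusted p = 0.851), therefore stands for arrays of 2 kinds and not for a shift of all. A second probe set gave -3.83. The family has near-identical members, so the transcript read by these probes is uncertain.

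Markers of liver cell types were measured at both doses, and in bulk tissue fewer cells of a type and less RNA per cell cannot be told apart. The hepatocyte list was high and equal: its mean log2 value per array was 13.68 to 13.77 at 10 mg/kg and 13.69 to 13.75 at 30 mg/kg, and all 17 measured markers had intervals within 1.5-fold. Of 16 Kupffer cell markers 0 had an unadjusted p under 0.05 (limma), with a list level of 8.58 to 9.07 at 10 mg/kg and 8.54 to 9.29 at 30 mg/kg. Array 1 of 30 mg/kg was the highest of its group in 14 of the 16 (87.5%, beside 19.2% of all genes). The median difference between doses was 0.05 with 12 higher, and without that array it was -0.08 with 13 lower. Without array 5 of 10 mg/kg it was -0.01, and without array 1 or 4 of that dose 0.02 or 0.01. Against the shared vehicle arrays the median stood at -0.35 and -0.31.

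Stellate cell and matrix markers were higher in mean at 30 mg/kg in 19 of 22, with a median of 0.12 and 4 at an unadjusted p under 0.05 (18.2%, beside 2.57% of all genes), among them Rgs5 at 0.37, Acta2 at 0.17 and Sparc at 0.16. The median of the list stood at -0.23 from vehicle for the lower dose and -0.12 for the higher dose. No marker had 0 overlap between doses, and the count of 4 was 0 without array 4 or array 5 of 30 mg/kg and 1 without array 2 or 5 of 10 mg/kg or array 2 of 30 mg/kg. Dpt, which is on that list, went the other way, at -0.20. Of 15 endothelial markers 12 were higher in mean, with a median of 0.05 and 1, Esam, at an unadjusted p under 0.05 (6.67%, beside 2.57% of all genes). The median was 0.02 without array 5 of 10 mg/kg (8 higher) and without array 1 or 5 of 30 mg/kg (9 higher each). Genes of structural and housekeeping complexes were closest: all 31 respiratory chain, 26 proteasome and 16 ribosomal protein genes had intervals within 1.5-fold. Their directions were still uneven. Of the ribosomal genes 15 were higher in mean (93.8%, beside 45.6% of all genes), with a median of 0.05. Of the respiratory chain and proteasome genes 22 and 18 were lower (71.0% and 69.2%, beside 54.4%), with medians of -0.01 and -0.03. In these lists 0 genes had an unadjusted p under 0.05 (limma). The part of cell makeup in the differences above was not tested.

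The measures of array quality overlapped between the doses, with array 2 of 30 mg/kg apart in some. Pairwise correlations among the 10 treated arrays were 0.991 to 0.996, and the median value per array averaged 6.66 and 6.67 at the lower and higher dose. The signal at the 3′ end over that at the 5′ end of Gapdh, a measure of RNA integrity, was 0.34 ± 0.02 and 0.37 ± 0.09 (SD, n = 5 each; exact two-sided permutation test, p = 0.579). Over 5 such measures the lowest exact p was 0.183, where 5 against 5 arrays can reach 0.00794, and the values adjusted by Benjamini-Hochberg were 0.724 or more. Array 2 of 30 mg/kg, high in Scd and Fasn and low in sterol synthesis, had the highest such signal ratio (log2) of all 15 arrays for Gapdh, 0.50, and for beta-actin, 1.91. For hexokinase its ratio, 1.80, lay inside the range of its group, 1.51 to 1.99. Its distance to the other arrays of its group was the largest among treated arrays, at 0.279. The part of RNA quality in the values of that array was not tested.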

How the data were processed

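The deposited table holds log2 values per probe set that the authors had already summarised and normalised between arrays. Per the submitters' processing notes the tools were RMA, GCRMA 2.12.1 and limma 2.14.7; no source used here gives the role of each. Normalisation between arrays hides a shift shared by most genes. Values ran from 2.91 to 15.38, no scan date was used, and the number of arrays limits the precision. Of 31099 probe sets, 57 were controls, 20826 had 1 symbol in the platform annotation, 436 several and 9780 none. A current gene entry matched 20758 of the 20826, and the rest kept the name in the annotation. A probe set was kept when the fifth highest of its 15 values exceeded the median of all values, 6.10, and the brightest stood for its gene.

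Group means were fitted to all 15 arrays with limma 3.58.1 in R 4.3.3, with Benjamini-Hochberg adjustment over 9540 genes, and the procedure was tested on simulated data. Single values per array were compared with exact permutation tests. Figures were drawn with matplotlib 3.10.9. Named genes were the 10 largest in each direction without overlap between doses at an unadjusted p under 0.05, the genes called for treatment, Acaca and Acacb, and up to 3 members of each list with the lowest p. Fasn, Pnpla3, Cyp4a1, Vnn1, Ugt2b and Bco1 were added after their values were seen. The comparison and the 42 gene lists were chosen with earlier results of these data known, and no list was tested as a set. The 25 alternatives changed the filter, the choice of probe sets, the normalisation, the fit, or left out 1 array. Same-numbered arrays of the doses did not deviate together, so the numbers were not used as pairs.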

Additional observations from a re-analysis of the deposited data

Results flagged for a closer look

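Among 84 genes in 3 groups each, 11 of 252 groups held an array whose gap to its neighbour exceeded 0.71 of the group's range, Dixon's critical value for 5 samples. By chance about 1 in 20 groups would.

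In genes that separated the doses, the gap was 0.735 for a high array 5 of 30 mg/kg in Eps8, and the difference between doses went from 0.28 to 0.20 without it. It was 0.78 for a low array 1 of 10 mg/kg in Ppp1r3d (0.22, and 0.19 without it) and 0.819 for a low array 5 of 10 mg/kg in Arhgdig (0.21, and 0.15 without it). In Sts, a steroid sulfatase, it was 0.987 for a high array 4 of 30 mg/kg, whose other 4 arrays all lay at 8.08, and the difference was -0.34, or -0.37 without it. In Ccnj it was 0.774 for a high array 4 of 10 mg/kg (-0.29, and -0.22 without it).

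In genes called for treatment, the gap was 0.732 for a high array 5 of 10 mg/kg in Dpt (-0.20, and -0.17 without it). In Tgoln2 it was 0.746 for a high array 2 of 30 mg/kg, without which the difference went from -0.09 to -0.16. In Aass, an enzyme of lysine breakdown that was not called for treatment, it was 0.745 for a low array 5 of 30 mg/kg (0.41, and 0.48 without it). The other 3 lay in vehicle and do not enter the difference between doses: Igfbp1 with 0.748 for a low array 1, Nqo1 with 0.724 for a low array 5 and Sult1e1 with 0.811 for a high array 3.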

How the results depend on the processing

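In all 25 alternatives limma called 0 genes between the doses, at a lowest adjusted p from 0.395 (without vehicle replicate 4) to 1.00 (without 30 mg/kg replicate 4), beside 0.851; with the replicate number as a block it called 0 and 531 had an unadjusted p under 0.05. Over all 15929 filtered probe sets, named or not, it also called 0. Where the same 9540 genes were tested, the unadjusted count of 555 ran from 353 (without 30 mg/kg replicate 4) to 697 (without 30 mg/kg replicate 2). It was 277 of 5698 with a stricter filter, 900 of 14217 with no filter and 750 of 12598 over all filtered named probe sets. Its share of genes higher at 30 mg/kg was 61.3% with no filter and 24.9% with a stricter one. The median difference of all genes stayed between -0.0192 and 0.0123. The 14 genes called for treatment became 39 with a stricter filter, 20 after quantile normalisation, 7 with array weights and 3 with the replicate block, and from 0 (without 10 mg/kg replicate 3) to 85 (without vehicle replicate 5) when 1 array was left out. Those counts include 38 without 30 mg/kg replicate 5, 24 without 10 mg/kg replicate 1, 2 without vehicle replicate 2 and 1 without vehicle replicate 1 or 4; the causes were not tested beyond the changed genes or samples. The share of called genes with an interval within 1.5-fold, 85.7%, was 100% with trend and robust options, array weights or the block, and 75 to 100% when 1 array was left out. Of 84 genes 79 kept the sign of their difference throughout; Acaca, Tfrc, Fasn, Mpst and Slc13a4 did not in 7 of all 2078 values. Of 42 list medians 25 kept theirs.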

Other observations

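In further lists, none of whose members was called between the doses, single genes had an unadjusted p under 0.05 (limma). In the iron and heme list of 26, Fech, which inserts iron into heme, was higher at 30 mg/kg by 0.32. Bmp6, a regulator of hepcidin, was higher by 0.15 (0.06 at its other probe set). They made up 7.69% of the list, beside 2.57% of all genes, and the list's median was -0.03. Fech measured 10.46, 10.24, 10.09, 10.47 and 10.21 at 10 mg/kg and 10.41, 10.57, 10.65, 10.72 and 10.69 at 30 mg/kg, with vehicle from 10.39 to 10.93. Aass was higher by 0.41, in a list of 34 urea cycle and amino acid genes with a median of 0.01. That is 2.94%, close to the 2.57% of all genes.

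In the growth hormone and IGF list of 17, Trim24, a transcriptional cofactor, measured 8.02, 6.66, 7.39, 6.74 and 6.51 at 10 mg/kg and 6.59, 6.55, 6.33, 6.28 and 6.26 at 30 mg/kg. The difference of -0.66 (interval -1.17 to -0.16) came with a spread at 10 mg/kg of 0.63 against 0.16 at 30 mg/kg (SD, n = 5 each). At an unadjusted p under 0.05 (limma), 1 of the 17 was lower and 1 higher (5.88% each, beside 3.25% and 2.57% of all genes). Of 17 clock genes, Hlf, an output factor of the clock, differed by -0.25 (5.88% lower, beside 3.25% of all genes). The list's median was -0.11, and the hour of tissue collection was not used here. Of 16 cytosolic chaperones, Hspa4 and Hsph1, partners of the heat shock protein HSP70, differed by -0.18 and -0.23 (12.5% lower, beside 3.25% of all genes). The median of that list was -0.07.

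A wider set held 98 genes with an unadjusted p under 0.001 for the mean of both doses against vehicle (limma). Of these, 60 had a mean nearer to vehicle at 30 than at 10 mg/kg (61.2%, beside 47.6% of all genes) and 38 further from it. The median was -0.04, signed towards vehicle as negative. The interval of the dose difference excluded 0 in 7 of them. It lay further from vehicle in 4 (4.08%, beside 3.54% of all genes) and nearer in 3 (3.06%, beside 2.27%), shares close to those of all genes. In 81.6% it lay within 1.5-fold, beside 94.7% of all genes. This wider set was added after the data were seen.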
